A study of Homo sapiens with 6 samples.

Results

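The matrix metalloproteinases (MMPs) MMP1, MMP2, MMP3, MMP7, MMP10, MMP14 and MMP15 and the tissue inhibitors of metalloproteinases (TIMPs) TIMP1, TIMP2 and TIMP3 were examined in the RNA-seq of P4HA3-overexpressing cervical cancer cells. These 10 genes were taken by symbol from the 60664 Ensembl genes counted, and the set was drawn up with the difference between the groups in view. Their differences are therefore given as a description, and calls of members in the fit over all genes support nothing. The cells, labelled SiHa PR, derive from SiHa, a long-established line of human squamous carcinoma of the cervix. The 3 control libraries are labelled only SiHa PR, and the 3 overexpression libraries SiHa PR P4HA3. P4HA3 encodes an α-subunit of the collagen prolyl 4-hydroxylase. The study's methods describe a lentiviral vector with the P4HA3 cDNA as well as an inducible line, without saying which was sequenced, and both groups come from a single cell line. The sources used here do not say whether the libraries of a group came from separate cultures, so the p-values below measure only the spread between these libraries.

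MMPs are zinc-dependent endopeptidases that cut collagens, laminins and other proteins of the extracellular matrix. Most are secreted as inactive precursors and become active when the propeptide is removed, and the membrane-type members act at the cell surface. TIMPs bind the active site of the enzymes and block it, and the balance between both families sets how much matrix is broken down. In carcinomas, including those of the cervix, MMPs are known for opening basement membrane and stroma to invading cells, and much MMP RNA in tumour tissue comes from stromal cells, which a pure culture lacks.

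Total counts per library lay between 21773488 and 24939948, and levels are given as CPM, counts scaled to library size by the TMM method, where 1 CPM corresponded to between 21.3 and 25.4 counts. P4HA3 itself had between 62 and 93 counts in the control libraries and between 44775 and 49097 in the overexpression libraries, in the direction of the labels. The growth protocol in the labels describes uterine smooth muscle, whereas the other labels give SiHa cells. Of 8 squamous and epithelial markers, 5 had a mean of at least 1 CPM over the 6 libraries, and the sum was 2566 to 2898 CPM in control cells and 2323 to 2622 CPM with overexpression. KRT8 was at 1817 ± 118 and 1703 ± 105 CPM in control and overexpressing cells (SD, n = 3). KRT18 (log2 fold change -0.40), KRT6A (-1.26) and CDH1 (-0.77) were called lower with overexpression, as were 11.4% of all genes tested. KRT8 (-0.09), EPCAM (-0.07) and KRT19 (0.22) were not called. The basal squamous marker KRT5 had 3 or 4 counts per library and TP63 between 3 and 13. Of the smooth muscle markers, 2 of 6 had a mean of at least 1 CPM (ACTA2 and SMTN). ACTG2 set libraries of the same group apart, with 0, 1 and 30 counts in control replicates 1, 2 and 3 and 40, 1 and 44 with overexpression. The summed level of all 6 was 95.1 to 105 CPM in control cells and 94.2 to 112 CPM with overexpression, and MYH11, DES and CNN1 had 9 counts or fewer in every library. All 7 fibroblast markers had a mean of at least 1 CPM, with a sum of 188 to 198 CPM in control cells and 148 to 189 CPM with overexpression. Of the immune markers, 1 of 5 did so (CD14) and CD3E was at 0, and the sum was 91.3 to 110 CPM in control cells and 35.1 to 50.9 CPM with overexpression. Among 3 endothelial markers PECAM1 alone did so, with a sum of 2.57 to 3.47 CPM in control cells and 1.33 to 1.58 CPM with overexpression. The part of these markers in the results below was not tested, and in bulk RNA fewer cells of a type and less RNA per cell cannot be told apart.

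Levels of different genes were compared as CPM per kb of the canonical transcript. Per transcript length TIMP1 stood far above every other member, while MMP14 lay between TIMP2 and TIMP3. TIMP1 was the most abundant member, at 1955 ± 118 CPM per kb in control cells (SD, n = 3), followed by TIMP2 at 139 ± 3.63, MMP14 at 77.1 ± 2.92, TIMP3 at 54.6 ± 1.99, MMP15 at 33.3 ± 2.04 and MMP2 at 4.94 ± 0.255. The secreted collagenase MMP1 was at 0.389 ± 0.117 CPM per kb and the stromelysin MMP3 at 0.118 ± 0.0246. From TIMP1 to MMP3 no 2 neighbours in this order overlapped in any library, in control cells or with overexpression, and the order was the same in both groups. MMP7 and MMP10 were at or under the floor of 3 counts in every library, so they could not be ranked.

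**Figure D1:**
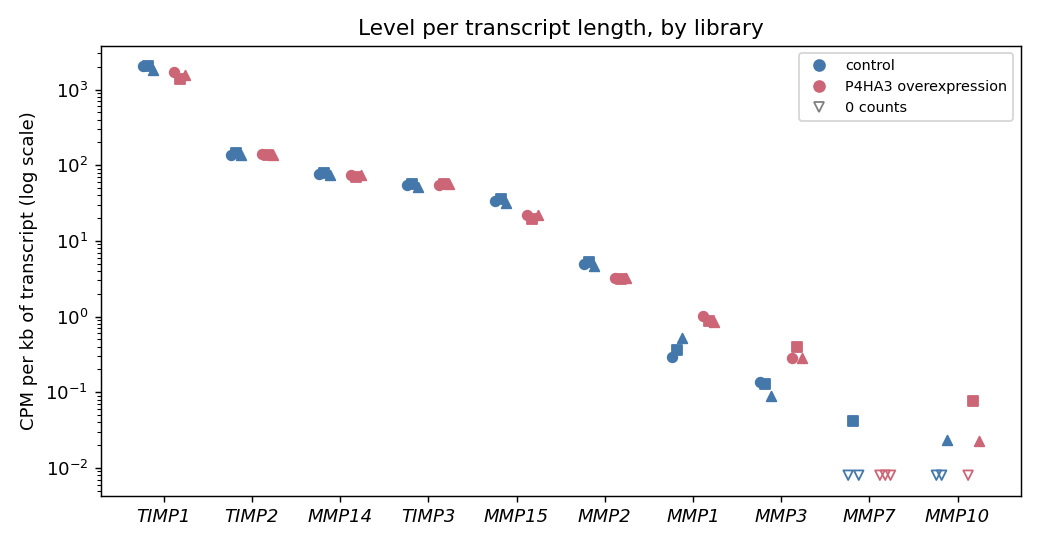
Level of the 10 members in each library as CPM per kb of the canonical transcript (log scale), ordered by the control mean, with blue points for control, red points for P4HA3 overexpression, and circles, squares and triangles for replicates 1, 2 and 3. TIMP1 lies at a mean of 1955 CPM per kb and MMP3 at 0.118 in control cells, and open triangles set at a fixed height mark libraries with 0 counts.

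In sum, the 7 MMPs were at 116, 121 and 111 CPM per kb in control replicates 1, 2 and 3, and at 102, 93.3 and 99.3 in overexpression replicates 1, 2 and 3. Every overexpression library was below every control library. The 3 TIMPs summed to 2216, 2222 and 2008 CPM per kb in control cells and to 1910, 1576 and 1744 with overexpression, again without overlap. The TIMP sum was therefore 18.1 to 19.1 times the MMP sum in control cells and 16.9 to 18.8 times with overexpression, and these ranges overlapped. With the longest transcript of each gene in place of the canonical one, it was 13.6 to 14.3 times in control cells and 12.9 to 14.2 times with overexpression. MMP14 and MMP15, both anchored in the membrane, made up 95.2% to 95.4% of the MMP sum in control cells and 95.2% to 95.6% with overexpression. Within this sum the share of MMP14 was 66.1% to 66.9% in control cells and 73.7% to 74.6% with overexpression. TIMP1 made up 90.6% to 91.3% of the TIMP sum in control cells and 87.7% to 89.7% with overexpression. These sums hold members chosen with the difference known, and in 40.1% of all genes tested the groups did not overlap either. They leave out other genes of both families, among them MMP17 (3.10 CPM per kb in control cells), MMP11 (2.63) and TIMP4 (8.43). RNA levels also do not measure the activity of the enzymes or their inhibitors. Sums with the trend on GC content and transcript length removed, described further on, were not formed. With that trend removed, the log2 fold changes of MMP15, TIMP1 and MMP14 were -0.41, -0.15 and 0.08.

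All 15130 genes that passed the filter on low counts were compared in edgeR (quasi-likelihood test), and a gene was called at an adjusted p under 0.05. This gave 1416 genes higher and 1731 lower with overexpression, a split that became 1603 and 1202 with the trend on GC content and transcript length described further on removed. In all genes tested, 20.8% were called (9.36% higher and 11.4% lower with overexpression), and the groups did not overlap in 40.1% (19.7% higher and 20.4% lower). Of the 10 members, 8 were tested, and MMP7 and MMP10 were not. MMP1 and MMP3 were called higher, MMP2, MMP15 and TIMP1 were called lower, and MMP14, TIMP2 and TIMP3 were not called. The 5 called members were those whose groups did not overlap. Nothing is read from these counts, because the members were chosen with this difference known. The median log2 fold change was -0.051 over the 8 members and 0.006 over all genes tested.

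**Figure D2:**
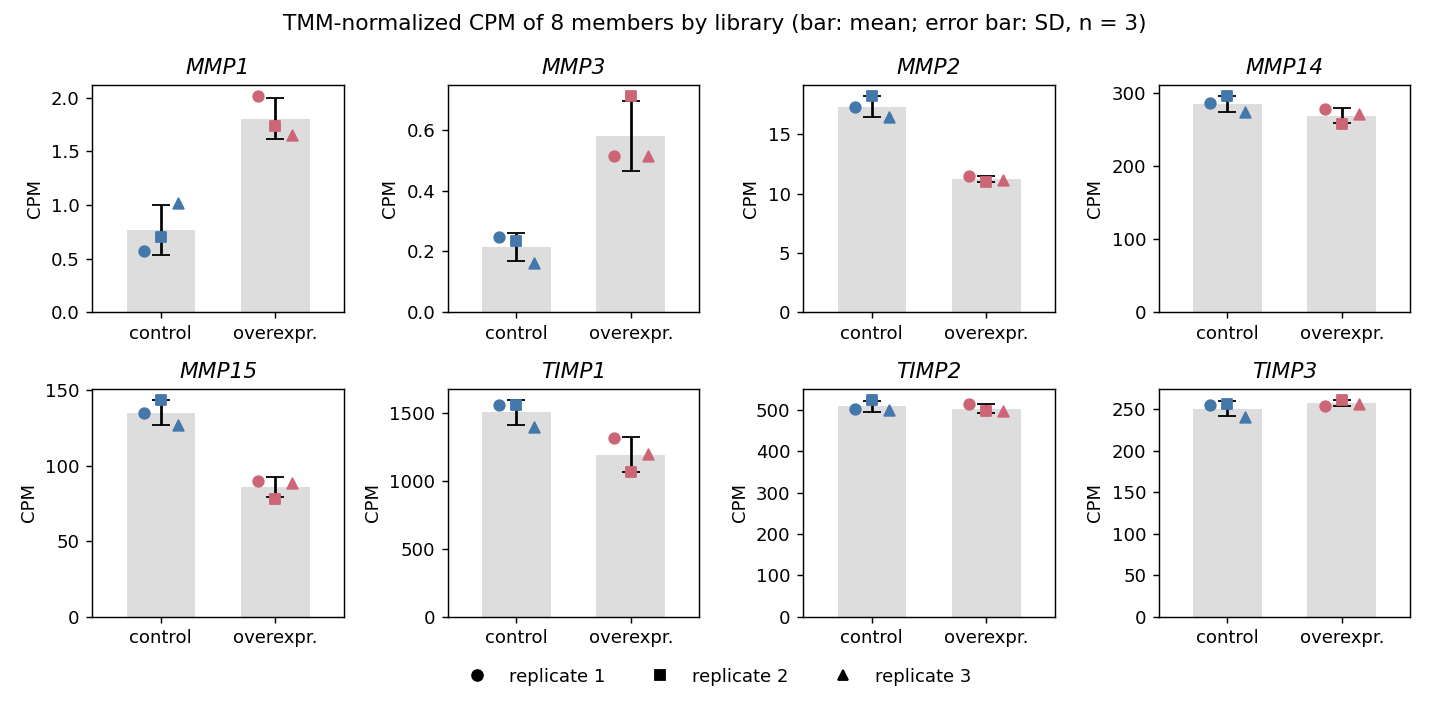
TMM-normalized CPM of the 8 tested members in each library, with points for libraries (blue for control, red for P4HA3 overexpression, marker shapes for the replicate number), grey bars for group means and error bars for the SD (n = 3). MMP1 and MMP3 lie higher in all 3 overexpression libraries, MMP2, MMP15 and TIMP1 lie lower, and MMP14, TIMP2 and TIMP3 overlap.

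MMP1, the interstitial collagenase that cleaves fibrillar collagen, is a minus-strand gene of chromosome 11 (ENSG00000196611, 102789401 to 102798160, GRCh38 as for all positions given here). It had 14, 15 and 25 counts in control replicates 1, 2 and 3, and 47, 39 and 42 counts in overexpression replicates 1, 2 and 3. The lowest overexpression library, at 1.66 CPM, was above the highest control library, at 1.02 CPM. The log2 fold change was 1.22 (standard error 0.231), a 2.33-fold difference between low levels. Leaving out 1 library at a time gave 1.04 to 1.5, and the gene was not called without control replicate 2, where the log2 fold change was 1.17. MMP1, like the other members, was selected on the RNA levels of these same samples, with the difference between the groups in view. The study shows the top differentially expressed genes of these samples in a heatmap, and its text does not say whether MMP1 is among them. Exons of WTAPP1 on the opposite strand share 223 of the 2738 exon bases of MMP1. WTAPP1 had between 1 and 4 counts per library, in overlapping ranges, and the strand setting of the counting is not stated, so a few reads could belong to either gene.

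MMP3, a stromelysin that degrades proteoglycans and laminin and activates other MMP precursors, lies beside it on the same strand (chromosome 11, 102835801 to 102843609, ENSG00000149968). Its counts were 6, 5 and 4 in control replicates 1, 2 and 3, and 12, 16 and 13 with overexpression. All 3 overexpression libraries were thus higher, on very few reads. The log2 fold change of 1.41 had the largest standard error of the 8 tested members, 0.35. MMP3 was called in only 1 of the 6 fits that left out a library, the one without overexpression replicate 1, and it did not reach the filter of 10 counts in every library. In the other 5 of these fits its log2 fold change lay between 1.24 and 1.53. Of its 1854 exon bases, 32 are shared with WTAPP1.

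MMP2, the gelatinase that degrades type IV collagen of basement membranes, lies on chromosome 16 from 55389700 to 55506691 on the plus strand (ENSG00000087245). It was counted 422, 389 and 403 times in control replicates 1, 2 and 3, and 268, 247 and 284 times with overexpression. Normalized expression was 17.4 ± 0.895 CPM in control cells and 11.2 ± 0.263 CPM with overexpression (SD, n = 3), and the groups were far apart in relation to their spread. The log2 fold change was -0.63 (standard error 0.0848), and it stayed between -0.66 and -0.59 with 1 library at a time left out. Exons of ENSG00000279030 on the same strand share 174 of the 4706 exon bases of MMP2.

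The membrane-type MMP14 is the main activator of the MMP2 precursor and cleaves collagen at the cell surface (chromosome 14, 22836560 to 22849041, plus strand, ENSG00000157227). It was at 286, 296 and 274 CPM in control replicates 1, 2 and 3, and at 278, 258 and 271 CPM with overexpression. The ranges overlapped, and the log2 fold change was -0.09 (standard error 0.0562). MMP15, also a membrane-type enzyme and a close relative of MMP14 (chromosome 16, 58025754 to 58046901, plus strand, ENSG00000102996), was at 135, 144 and 127 CPM in control cells and at 90.2, 78.1 and 88.7 CPM with overexpression. No overexpression library reached the lowest control library. The log2 fold change was -0.66 (standard error 0.0716), and it lay between -0.70 and -0.60 with each library left out. The difference between the changes of MMP14 and MMP15 was not tested.

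TIMP1, a secreted inhibitor of most soluble MMPs that acts weakly on several membrane-type enzymes, lies on the X chromosome from 47582408 to 47586789 on the plus strand (ENSG00000102265). Its level was 1556, 1556 and 1398 CPM in control replicates 1, 2 and 3, and 1317, 1064 and 1193 CPM with overexpression. Overexpression replicate 2 was the lowest library, and the gap between the groups was narrow beside the spread within them. The log2 fold change was -0.34 (standard error 0.0848). TIMP1 was no longer called without control replicate 1 (log2 fold change -0.31), without control replicate 2 (-0.31) or without overexpression replicate 3 (-0.34).

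TIMP2, which inhibits MMPs and also links the MMP2 precursor to MMP14 (chromosome 17, 78852977 to 78925387, minus strand, ENSG00000035862), was at 501, 524 and 501 CPM in control replicates 1, 2 and 3, and at 515, 498 and 497 CPM with overexpression. TIMP3, which stays bound to the matrix and also inhibits ADAM proteinases (chromosome 22, 32801705 to 32863041, plus strand, ENSG00000100234), was at 255, 257 and 240 CPM in control cells and at 255, 261 and 256 CPM with overexpression. Both inhibitors overlapped between the groups. The log2 fold changes were -0.02 (standard error 0.0537) for TIMP2 and 0.04 (standard error 0.0527) for TIMP3. Of the 6209 exon bases of TIMP2, 224 are shared with CEP295NL on the same strand and 367 with a long non-coding RNA on the opposite strand.

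**Figure D3:**
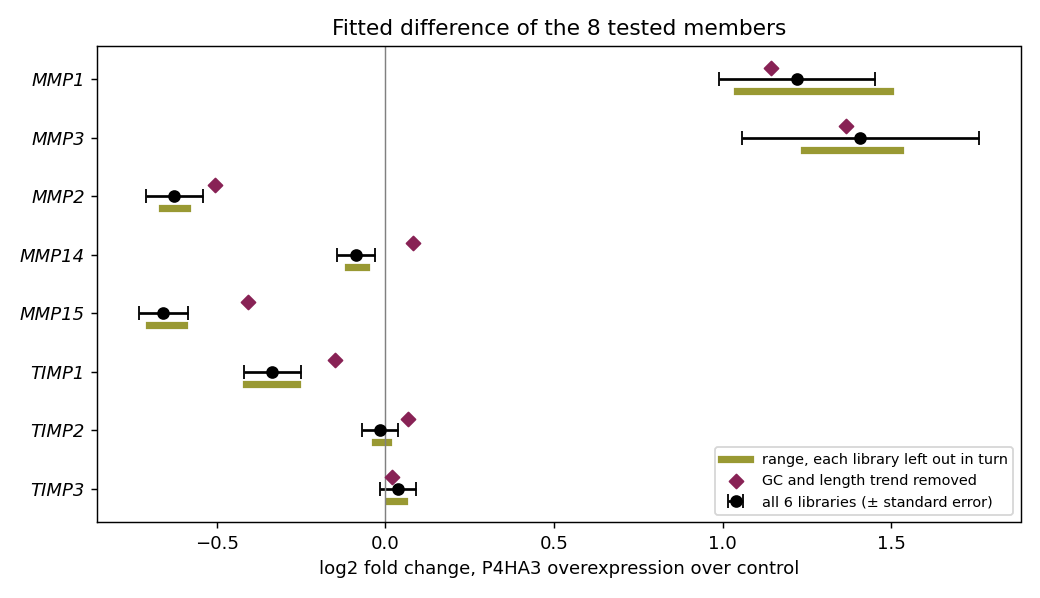
Fitted log2 fold change of the 8 tested members, P4HA3 overexpression over control, with black points and bars for all 6 libraries ± standard error, olive lines for the range when 1 library at a time was left out, and purple diamonds for the fit after removal of each library's GC and length trend. MMP1 and MMP3 stay above 1, MMP2 and MMP15 stay below -0.4, and MMP14 and TIMP2 change sign around 0.

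The libraries differed in how counts depended on the GC content of the transcript, within the groups as well as between them. The deviation of a library from its group mean had a Spearman rho with GC content of 0.231, 0.41 and -0.561 in control replicates 1, 2 and 3, and of 0.478, -0.508 and 0.0826 with overexpression. Over 15100 tested genes, a description across genes that share the same libraries, the log2 fold change had a Spearman rho of -0.581 with GC content. The members called higher have a lower GC content (MMP1 43.3%, MMP3 45%) than those called lower (MMP2 55.8%, TIMP1 57.5%, MMP15 65.5%). Of the 3042 genes with a GC content above 40% and up to 45%, 17.5% were called higher and the median log2 fold change was 0.15. Of the 2321 genes above 55% and up to 60%, 21.1% were called lower and the median was -0.14, and of the 641 genes above 65%, 36.3% were called lower with a median of -0.27.

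After removal of the trend that each library showed on GC content and transcript length, MMP1 had a log2 fold change of 1.14 (standard error 0.229), MMP3 of 1.37 (0.351) and MMP2 of -0.51 (0.0674). The values of MMP1 and MMP3 stayed close to the uncorrected ones, and that of MMP2 was smaller in size than its uncorrected -0.63. MMP15 moved to -0.41 (0.0434) and TIMP1 to -0.15 (0.0436), smaller in size than before by more than 1.5 times, and MMP14 moved to 0.08 (0.036) and TIMP2 to 0.07 (0.0375). This step also takes away any true difference that follows GC content or length.

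**Figure D4:**
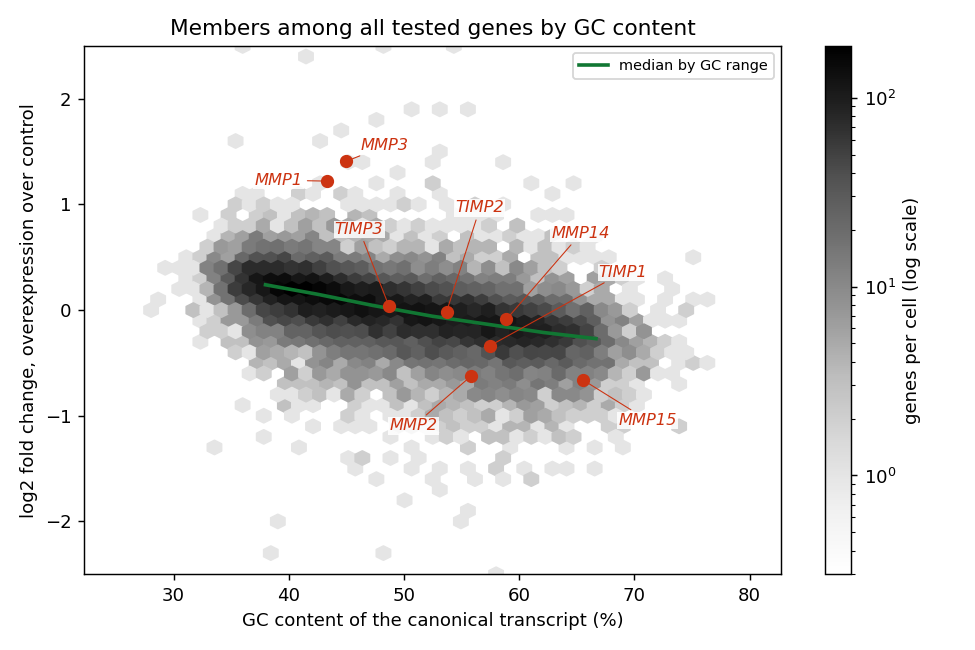
Log2 fold change (overexpression over control) against the GC content of the canonical transcript for all tested genes, as grey cells shaded by the number of genes on a log scale with values beyond ± 2.5 drawn at the edge, the median by range of GC content in green and the 8 tested members in red. The median falls from 0.24 below 40% to -0.27 above 65%, MMP1 and MMP3 lie above it, MMP2 and MMP15 below it, and MMP14, TIMP2 and TIMP3 close to it.

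MMP1, MMP3, MMP7 and MMP10 belong to a cluster of 9 MMP genes that spans 435 kb of chromosome 11, from 102520508 to 102955732. All 9 code for secreted enzymes. In SiHa PR cells nearly all reads of this cluster came from MMP1 and MMP3, which gave 97.2% of its 71 counts in the control libraries and 96.6% of its 175 counts in the overexpression libraries. MMP7, the matrilysin of glandular epithelia (102520508 to 102530750, minus strand), had 1 count in control replicate 2 and 0 in the other 5 libraries. MMP10, a stromelysin like MMP3 (102770502 to 102780628, minus strand), had 1 count in control replicate 3, 3 in overexpression replicate 2, 1 in overexpression replicate 3 and 0 elsewhere. MMP8, MMP12, MMP20 and MMP27 had 0 counts in all 6 libraries, and MMP13, a collagenase, had 2 counts in all. A floor of 3 counts corresponds to 0.118 to 0.141 CPM per library, so differences of these genes were not detectable at this depth. That floor covers counting error only.

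The promoters of the near-silent members MMP7 and MMP10 differ in sequence from those of the abundant MMP14, MMP15, TIMP1 and TIMP3. RefSeq promoter sequences (GRCh38.p14) were at hand for these 6 of the 10 members, and were not at hand for MMP1, MMP2, MMP3 and TIMP2. Without MMP1 and MMP3, whether the difference goes with level or with place in the cluster was not tested. The 250 bases before the start were searched on both strands for TGANTCA and for TATAAA, the TATA box. TGANTCA is a loose form of the AP-1 binding motif that allows any base at its centre, and its reverse complement is the same pattern. The motifs do not overlap each other in these windows. MMP7 and MMP10 hold both, and MMP14, MMP15, TIMP1 and TIMP3 hold neither in exactly this form. Variants of the patterns were not searched, so these promoters may still hold an AP-1 site or a TATA box of another form. TGANTCA was present in 6.57%, TATAAA in 10.7% and both in 1.07% of 35116 promoters of the same length. The GC content of the window was 33.6% for MMP7, 34.4% for MMP10, 56.8% for MMP14, 64.8% for TIMP1, 72.4% for TIMP3 and 74.8% for MMP15, against a median of 58% over all promoters. The last 100 bases before the RefSeq transcription start are printed for both near-silent members and for the abundant members MMP15 and TIMP1, with both motifs in capitals. The windows are chr11:102530748-102530847 (minus strand) for MMP7, chr11:102780629-102780728 (minus strand) for MMP10, chr16:58025654-58025753 (plus strand) for MMP15 and chrX:47582336-47582435 (plus strand) for TIMP1.
MMP7: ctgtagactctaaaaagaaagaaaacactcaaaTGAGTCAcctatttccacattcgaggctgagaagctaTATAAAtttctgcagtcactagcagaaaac
MMP10: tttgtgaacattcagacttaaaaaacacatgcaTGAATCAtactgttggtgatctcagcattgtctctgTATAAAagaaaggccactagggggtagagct
MMP15: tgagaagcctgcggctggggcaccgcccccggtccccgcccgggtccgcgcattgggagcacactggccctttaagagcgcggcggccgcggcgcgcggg
TIMP1: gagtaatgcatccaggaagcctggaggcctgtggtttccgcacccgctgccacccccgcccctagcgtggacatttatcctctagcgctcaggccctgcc
In MMP7 and MMP10 the TGANTCA match (TGAGTCA and TGAATCA) starts 67 bases before the transcription start, and the TATA box 30 and 31 bases before it. A match describes the letters only, and no binding was measured here.

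The other 16 human MMP genes were examined next, listed by family. This list and those that follow were drawn up with earlier results of these data known. Their calls and adjusted p-values are therefore given as a description. Of the 16 genes, 5 passed the filter, 5 had no count in any library, and the remaining 6 had 4 counts or fewer in every library. MMP11, MMP17 and MMP28 fell with overexpression, none rose, and MMP24 and MMP25 were not called. Thus 60% of those tested were called, against 20.8% of all genes. All 5 transcripts have a GC content above 60%. Of all tested genes above 60% and up to 65%, 30.8% were called lower, with a median log2 fold change of -0.21. Above 65% these values were 36.3% and -0.27. The median log2 fold change of the 5 was -0.81. MMP11, which is activated by furin inside the cell and is best known from tumour stroma (chromosome 22, 23768226 to 23784316), had 160, 114 and 145 counts in control replicates 1, 2 and 3, and 67, 70 and 77 with overexpression. In edgeR the difference on the log2 scale was -0.98 (standard error 0.126), with a Benjamini-Hochberg adjusted p = 0.00147. MMP17, held in the membrane by a lipid anchor (chromosome 12, 131828393 to 131851783), went from 7.48 ± 0.591 to 4.23 ± 0.754 CPM (SD, n = 3), which is -0.82 on the log2 scale (standard error 0.139, adjusted p = 0.005 by edgeR).

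MMP28, an MMP of epithelial cells (chromosome 17, 35756249 to 35795707), had 44, 44 and 48 counts in control cells and 28, 17 and 34 with overexpression, a log2 difference of -0.81 (standard error 0.214, adjusted p = 0.0269 by edgeR). Its call was lost without control replicate 1 (log2 fold change -0.86), control replicate 2 (-0.76), control replicate 3 (-0.80) or overexpression replicate 2 (-0.61), and with the GC and length trend removed (-0.56). MMP11 and MMP17 were called lower in every alternative run, with log2 fold changes of -0.75 and -0.53 with the trend removed. All 3 transcripts have a GC content above 60% (MMP11 61.9%, MMP17 68.7%, MMP28 63.2%). The membrane-type MMP24 had a log2 fold change of 0.33 (adjusted p = 0.146 by edgeR), and MMP25, another lipid-anchored enzyme, one of -0.80 (adjusted p = 0.0606 by edgeR). With the trend removed MMP24 was called higher (log2 fold change 0.51), and MMP25 was called lower with no filter on low counts (-0.79). MMP9, the second gelatinase, had 1 count in control replicate 3, 1 in overexpression replicate 1 and 0 in the other 4 libraries.

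**Figure D5:**
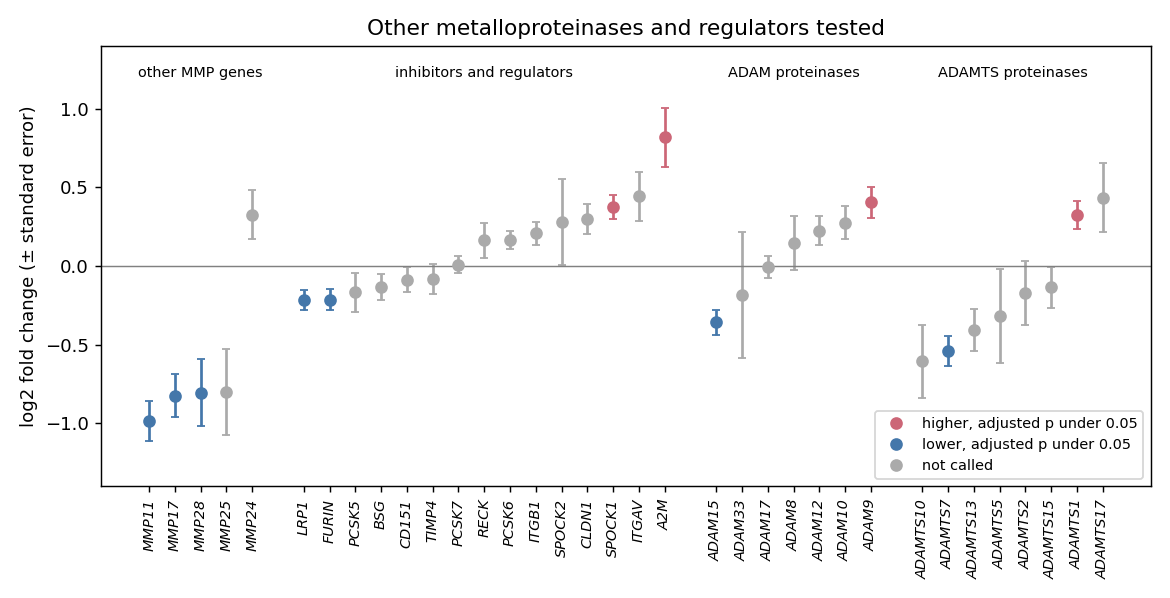
Log2 fold change (overexpression over control, ± standard error) of the tested genes in 4 lists that share no gene with the 10 members, with red for called higher, blue for called lower and grey for not called. MMP11, MMP17 and MMP28 are the 3 called genes among the other MMPs, all lower, and the other 3 lists hold called genes in both directions.

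Among 16 genes that inhibit, activate or clear MMPs, 15 were tested, of which 2 rose, 2 fell and 11 were not called (26.7% called, against 20.8% of all genes, with a median log2 fold change of 0.16). A2M, a broad proteinase inhibitor that traps its targets, had 23, 23 and 32 counts in control replicates 1, 2 and 3, and 46, 40 and 54 with overexpression, a log2 difference of 0.82 (standard error 0.188, adjusted p = 0.0161 by edgeR). SPOCK1, a secreted proteoglycan of the testican family, rose from 67.4 ± 3.08 to 87.5 ± 7.9 CPM (SD, n = 3), or by 0.38 on the log2 scale (standard error 0.0744, adjusted p = 0.00964 by edgeR). LRP1, the endocytic receptor that removes several MMPs and TIMPs from the cell surface, fell by 0.22 on the log2 scale (standard error 0.0637, adjusted p = 0.0384 by edgeR). FURIN, the convertase that activates MMP14, MMP15 and MMP11, fell by 0.21 on the log2 scale (standard error 0.066, adjusted p = 0.0441 by edgeR). The fall of FURIN was gone with the GC and length trend removed (log2 fold change -0.01), and that of LRP1 was then -0.11 and not called.

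These calls were also lost when any of several libraries was left out. A2M was not called without control replicate 1 (log2 fold change 0.71), control replicate 2 (0.80) or overexpression replicate 3 (0.75), and SPOCK1 not without control replicate 2 (0.34) or overexpression replicate 3 (0.35). LRP1 lost its call without control replicate 1 (-0.24), control replicate 2 (-0.15) or overexpression replicate 3 (-0.22), and FURIN without control replicate 1 (-0.20), control replicate 2 (-0.18), overexpression replicate 2 (-0.17) or overexpression replicate 3 (-0.23). TIMP4, the remaining TIMP, was at 10.1 ± 0.521 CPM in control cells and 9.52 ± 0.635 CPM with overexpression (SD, n = 3), with a log2 fold change of -0.08 (adjusted p = 0.557 by edgeR). RECK, a membrane-anchored inhibitor, had a log2 fold change of 0.16 (adjusted p = 0.293 by edgeR), and one of 0.03 with the trend removed. BSG, the surface protein known as an inducer of MMPs in neighbouring cells, was at 1568 CPM in control cells and 1427 CPM with overexpression (log2 fold change -0.14, adjusted p = 0.249 by edgeR), and was called lower without overexpression replicate 1 (-0.21). These 3 genes, MMP24 and MMP25 were named after their values were seen.

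In the related ADAM family, membrane proteins that shed the outer part of other surface proteins, 7 of 12 proteinases were tested. Of the 7, 1 rose, 1 fell and 5 were not called (28.6% called, against 20.8% of all genes, with a median log2 fold change of 0.15). ADAM9 rose from 92.1 ± 8.95 to 122 ± 16.5 CPM (SD, n = 3), or by 0.40 on the log2 scale (standard error 0.0998, adjusted p = 0.0208 by edgeR). ADAM15 fell from 419 ± 25.7 to 327 ± 33.3 CPM (SD, n = 3), which is -0.36 on the log2 scale (standard error 0.0798, adjusted p = 0.0146 by edgeR). With the trend removed, ADAM9 was at 0.20 and still called, and the fall of ADAM15 was not called (log2 fold change -0.13). Both genes were uncalled without control replicate 1 (ADAM9 0.36, ADAM15 -0.34), control replicate 2 (0.37 and -0.32) or overexpression replicate 3 (0.40 and -0.38). ADAM10, the most abundant of those not called, had a log2 fold change of 0.28 (adjusted p = 0.0778 by edgeR), one of -0.02 with the trend removed, and one of 0.16 without overexpression replicate 2. It was called higher without overexpression replicate 1 (0.38), in DESeq2 (0.28) and with no filter on low counts (0.29).

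Of 19 ADAMTS proteinases, secreted enzymes that act on proteoglycans and other matrix proteins, 8 were tested. Of the 8, 1 rose, 1 fell and 6 were not called (25% called, against 20.8% of all genes, with a median log2 fold change of -0.24). ADAMTS1, which cleaves aggrecan and versican, rose from 33.8 ± 0.268 to 42.3 ± 5.51 CPM (SD, n = 3), or by 0.32 on the log2 scale (standard error 0.0903, adjusted p = 0.0319 by edgeR). Its call was kept in only 1 of the 6 fits that left out a library, the one without overexpression replicate 1, and its log2 fold change in the other 5 lay between 0.21 and 0.37. ADAMTS7, which cleaves cartilage oligomeric matrix protein, fell from 25.2 ± 0.904 to 17.3 ± 2.15 CPM (SD, n = 3), which is -0.54 on the log2 scale (standard error 0.0979, adjusted p = 0.00676 by edgeR). ADAMTS7 was not called without control replicate 2 (log2 fold change -0.53). With the trend removed, ADAMTS1 was at 0.30 and ADAMTS7 at -0.31, both still called. ADAMTS15, the most abundant of those not called, had a log2 fold change of -0.14 (adjusted p = 0.468 by edgeR).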

How the data were processed

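Poly-A RNA of 3 control and 3 P4HA3 overexpression libraries of SiHa PR cells was sequenced. Per the supplementary methods, the authors made strand-specific libraries by the dUTP method, aligned reads to GRCh38 with STAR and counted them per gene with HTSeq, whereas the submitters' processing notes name HISAT2. The deposited values are raw counts without normalization. Strand setting, treatment of reads with several matches and tool versions are not given in the sources used here.

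Symbols, positions, transcript lengths and GC content came from GENCODE 44 on GRCh38 (60463 of 60664 identifiers matched). With edgeR 4.0.16 (R 4.3.3), low counts were removed by filterByExpr (minimum count 10), TMM factors set the library sizes, and overexpression was set against control in the two-sided quasi-likelihood test with Benjamini-Hochberg adjustment over 15130 genes. Standard errors are the log2 fold change divided by the root of F. No pseudocount was added to CPM. Within each group no pair of libraries was as close as counting noise alone allows (chi-square per degree of freedom 4.79 to 16.2). The common biological coefficient of variation was 7.66%. The test was checked on simulated counts.

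The members and lists were chosen with earlier results of these data known. Named genes are the members, P4HA3, WTAPP1, the genes of the chromosome 11 cluster and, per list, at most 5 called genes by size of change, filled up to 3 with the most abundant uncalled ones. Markers and genes stated to be outside this rule were also named. Alternatives were DESeq2 1.42.0, limma-voom (limma 3.58.1), RLE factors, no filter, at least 10 counts in every library, a replicate block, each library left out, removal of trends on GC content and length (mgcv 1.9.3), and the longest transcript for levels.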

Additional observations from a re-analysis of the deposited data

How the results depend on the processing

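With each library left out in turn, between 0 and 2 members were called higher and between 2 and 3 lower, and the calls in the lists numbered 2 to 3 for the other MMP genes, 0 to 8 for the inhibitors and regulators, 0 to 3 for the ADAM and 0 to 4 for the ADAMTS proteinases. Over all genes, 163 were called higher and 371 lower without control replicate 2, and 2814 higher and 2716 lower without overexpression replicate 1, against 1416 and 1731. At an unadjusted p under 0.05 in edgeR these fits gave 2 members higher and 3 lower each, and 3 to 5, 6 to 10, 2 to 4 and 3 to 5 genes of the lists. The share of all genes under that threshold is not given here, so nothing is read from these counts. With at least 10 counts in every library 1 member was called higher, since MMP3 was filtered out. DESeq2 gave no adjusted p to MMP1 or MMP3, so it has no count of members called higher. With no filter on low counts 7 inhibitors and regulators were called.

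Whether the shared replicate numbers pair the samples could not be settled. Deviations of same-numbered libraries correlated at 0.392, -0.108 and 0.0185, and of the control libraries only replicate 1 correlated best with its own number. With the replicate block 7 inhibitors and regulators were called against 4 without it. MMP25 (log2 fold change -0.81) and ADAM10 (0.27) were called with it and not without it, and the members called numbered 2 higher and 3 lower as before.

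With the GC and length trend removed, the signs of MMP14 (0.083), TIMP2 (0.066), TIMP4 (0.027), BSG (0.114), ADAM10 (-0.017) and ADAMTS15 (0.026) reversed, none of them called. TIMP2 lay between -0.0311 and 0.00704 with each library left out, above 0 only without control replicate 2. With the longest transcript, the control level per kb was 1373 for TIMP1 and 74.1 for MMP14, in the same order. The cause was not tested. Counting limits MMP1 and MMP3, and MMP7 and MMP10 could not be compared at this depth.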
